A study of Mus musculus with 4 samples.

Results

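The transcription factors described here are Id2, Bhlhe40, Maf, Batf, Eomes and Gata3, 6 genes known to direct effector and memory programmes in T cells. All probe sets annotated with 1 of these symbols were taken, which gave 11 probe sets, 5 on the B chip and 6 on the A chip of a mouse Affymetrix set, out of 6137 genes with their own symbol on either chip. The B chip held Id2, Bhlhe40, Gata3 and a pair of Maf probe sets. The A chip held Eomes, Id2, Bhlhe40, Maf and a pair of Batf probe sets, and 3 of the 6 genes were thus read on both chips.

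Memory and naive CD8 T cells came from female B6.2.16 mice, whose CD8 T cells bear 1 transgenic receptor, specific for the male antigen HY, on a RAG1-deficient background that the hosts shared. For the memory group, splenocytes were stimulated with HY peptide in culture for 4 days, transferred into RAG1-deficient females and recovered 200 days later from spleen and lymph nodes with magnetic beads, at a stated purity above 80%. Naive cells were taken directly from lymph nodes, with purity given as above 85%. Each group was read on 1 array per chip, 4 arrays in all, so no spread between replicates, standard error or p-value can be given, and every ratio compares 1 pair of arrays. The memory group also differed from the naive group in tissue, culture, transfer, age and sorting, which cannot be told apart from memory itself.

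These factors belong to different DNA-binding families. Id2 has a helix-loop-helix domain but no basic region, so it does not bind DNA itself and instead holds E proteins away from their sites. Bhlhe40 has both parts and acts mostly as a repressor. Batf and Maf are leucine zipper proteins: Batf pairs with Jun proteins and works with IRF4 or IRF8, while Maf drives cytokine genes such as Il4, Il10 and Il21 and is also used by macrophages. Eomes is a T-box factor that, together with its relative T-bet, drives genes such as Ifng, Prf1 and Il2rb in CD8 T cells, and Gata3 is a zinc finger factor needed for T cell development and for the T helper 2 programme.

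The arrays set limits on what could be compared. Across 6540 gene probe sets of the B chip the values of memory and naive cells correlated (Spearman 0.85), whereas across 6529 of the A chip they hardly did (0.10). Signals of the 55 controls that both chips carry correlated between chips at 0.96 for the memory arrays and at 0.21 for the naive arrays. No naive value of the A chip is therefore compared by gene, and the A chip gives only memory levels. Beyond this check, its naive array serves only to set an alternative noise limit. Intensities are in arbitrary units and can be negative. Each array was given a noise limit, the 95th percentile of the absolute size of its negative values, and the floor of the B chip was the larger limit of its arrays, 423. Smaller values were raised to the floor before ratios were formed, and a difference was called when it reached 2-fold and the brighter value was 2 times the floor or more. The cells checked against their markers gave Cd3d at 959 in memory against 1115 in naive cells on the B chip, and Cd8a at 498 in memory against 352 in naive cells, the naive value under the floor. Of 5 measured T cell markers 1 was called lower in memory, with a summed intensity of 4780 in memory against 8577 in naive cells. The called marker was Thy1, which read 2848 in memory against 6184 in naive cells and made up most of both sums. The other 4 were not called, and 3 of the 5 lay above the floor on 1 array only. Thy1 was brighter than Id2 by the mean of both arrays. Over the 84 B chip probe sets brighter than Id2 the median log2 ratio was -1.14, against -1.12 for Thy1. The part of this trend in the T cell sum was not tested. Of 10 measured macrophage and monocyte markers 5 were called higher in memory and none lower, with a summed intensity of 27250 in memory against 15946 in naive cells. Of 3 measured erythroid markers 2 were called lower and 1 higher, with a sum of 6240 in memory against 17584 in naive cells. Of 6 measured dendritic cell and MHC class II markers 1 was called lower and 2 higher, with 12832 in memory against 16797 in naive. None of the 3 granulocyte and 2 NK cell markers measured was called. Of all measured genes on the B chip, 8.66% were called lower and 8.87% higher. The B cell marker Cd79a, the only 1 of 6 listed on the B chip, lay under the floor on both arrays (-48.6 in memory, 69.5 in naive cells). On the A chip 1 of 4 listed B cell markers was above the noise limit of 184 in memory, Ms4a1 at 301. Of all genes on that chip, 29.5% were above it. The ratio of 3 prime to 5 prime signal of the actin control was 0.747 in memory and 1.17 in naive cells on the B chip, and that of the Gapdh control was 1.76 in memory and 1.25 in naive cells.

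On the B chip, 3 of the 4 genes present were measured, meaning above the floor on at least 1 array, as were 26.2% of all genes on that chip. Of these, Bhlhe40 was called lower in memory, while Id2 and Maf lay within 2-fold and no gene was called higher. Over all 462 measured genes, 8.66% were called lower and 8.87% higher in memory. The 3 measured genes had a median log2 ratio of memory to naive of -0.21, against -0.12 over all measured genes. With 3 genes, 1 call is no statement about the factors as a group. In such bulk preparations fewer cells of a type and less RNA per cell cannot be told apart.

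**Figure D1:**
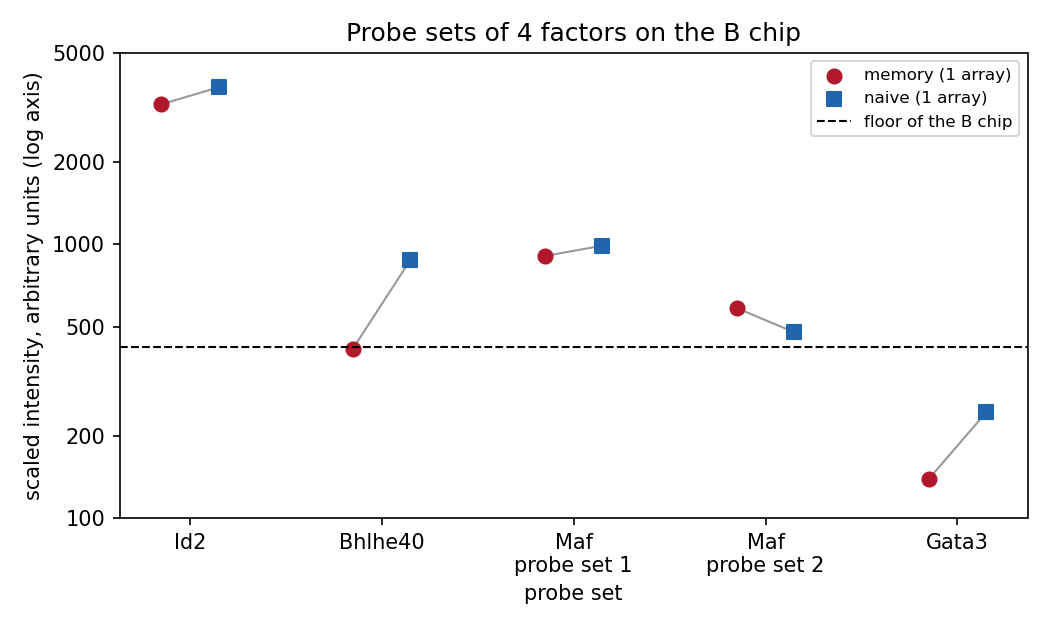
Scaled intensity on the B chip (log axis, arbitrary units) of the 5 probe sets of Id2, Bhlhe40, Maf and Gata3, with memory (circles) left of naive (squares), 1 array each, and the floor of 423 as a dashed line. Bhlhe40 stands at the floor in memory against 879 in naive cells, while Gata3 lies under the floor on both arrays.

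Bhlhe40 gave 416 in memory cells and 879 in naive cells. The memory value lay just under the floor of the chip, though above the limit of 287 of its own array, and the naive value was 2.08 times the floor. With the memory value raised to the floor, the signal was 2.08-fold lower in memory, and it was 2.11-fold lower when the values were divided without a floor. The gap of 463 units was larger than the noise limit of either array (287 for memory, 423 for naive) but smaller than their root sum of squares, 511. On the A chip another Bhlhe40 probe set, drawn from a different accession, read 102 in memory cells, under the noise limit of 184 of that array. In memory cells the B chip value thus lay between the limit of its array and the floor, and the A chip value lay under its limit.

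The Bhlhe40 call stood close to its threshold. The log2 ratio was -1.06 as reported and -1.002 with quantile normalization, -0.99 with intensity-dependent (lowess) normalization and -0.93 with scaling by the median ratio. The last scaling removes a median log2 ratio of -0.15, found over the 696 probe sets above the floor on both arrays, so relative to that median Bhlhe40 was less than 2-fold lower. With the floor doubled to 846 only the naive value stayed above it, and the log2 ratio became -0.055.

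Id2 was bright in both populations. It read 3247 in memory cells and 3745 in naive cells, 7.68 and 8.86 times the floor, and its log2 ratio of -0.21 corresponds to a 1.15-fold lower value in memory. No call was made for Id2 under any setting, but its direction was not fixed: the log2 ratio turned to 0.58 with quantile and 0.52 with lowess normalization. Of the 84 probe sets brighter than Id2 by the mean of both arrays, 82 had a negative log2 ratio, with a median of -1.14 as reported, -0.19 with quantile and -0.025 with lowess normalization. A second Id2 probe set on the A chip, listed for the same accession as the B chip one, read 4 in memory cells. Its name carries the mark rc, as do 1260 probe sets of the A chip, of which 19.2% were above the noise limit in memory, against 28.4% of the 5269 others. The A chip probe set therefore gave no signal for a transcript that the B chip read at 7.68 times its floor. The part of the probe design in this was not tested.

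**Figure D2:**
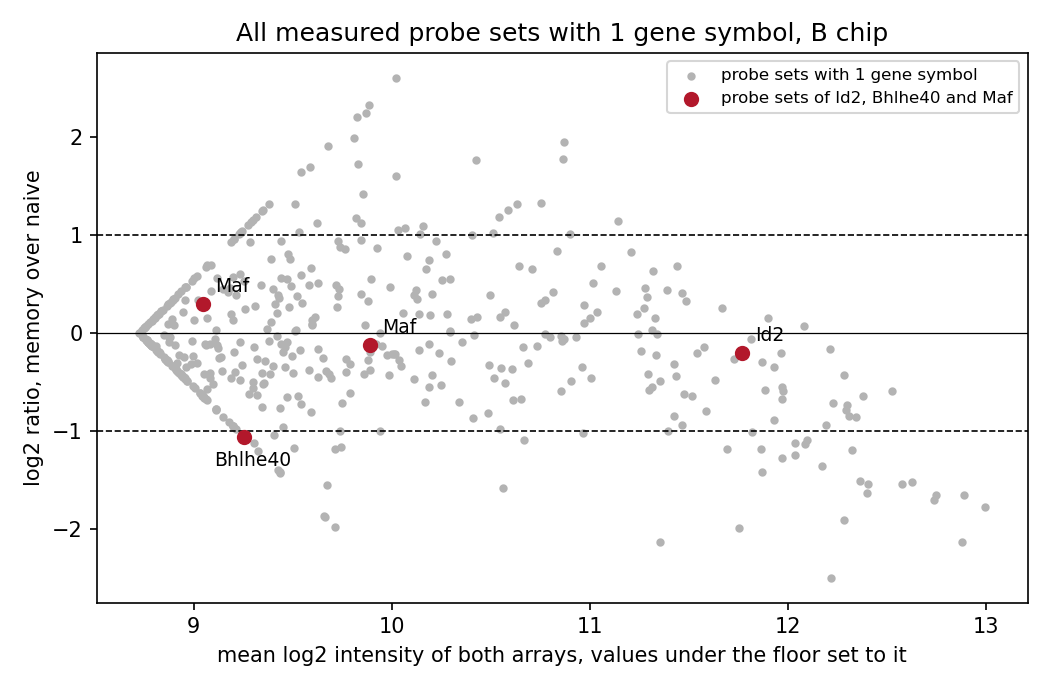
Log2 ratio of memory to naive (vertical axis) against the mean log2 intensity of both arrays (horizontal axis) for all measured B chip probe sets with 1 gene symbol (grey), with those of Id2, Bhlhe40 and Maf marked. Bhlhe40 sits on the lower 2-fold line (dashed) near the dim end, and Id2, at -0.21, lies at the bright end where most ratios are below 0.

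Maf was read by a pair of B chip probe sets of the same accession, and both lay above the floor on both arrays. The first gave 907 in memory and 989 in naive cells, a log2 ratio of -0.13. The second gave 586 in memory and 478 in naive cells, a log2 ratio of 0.29. The probe sets pointed in opposite directions, and neither reached 2-fold. The gap between their log2 ratios was 0.42. For comparison, 33 genes had exactly 2 probe sets above the floor on both arrays, Maf included, and they were not matched for brightness. The log2 ratios of their 2 probe sets differed by a median of 0.26, by over 0.5 in 10 genes and by over 1 in 1 gene. A difference of the size seen for Maf was thus within what probe sets of 1 gene showed on the same pair of arrays. The first Maf ratio turned to 0.024 with median-ratio scaling, and to 0.025 when both probe sets were averaged. Another Maf probe set, on the A chip, read 222 in memory cells, above the limit of 184. Macrophages also use Maf, and 5 of 10 measured macrophage markers were higher in the memory preparation. Among them the macrophage growth factor receptor Csf1r read 2723 in memory against 1090 in naive cells, and the pore-forming protein Mpeg1 read 3665 in memory against 954 in naive cells. The other 5 were not called. These included Vcam1 at 4443 in memory against 4217 in naive cells and C1qc at 3549 in memory against 2984 in naive cells. The part of macrophages in the Maf signal was not tested.

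**Figure D3:**
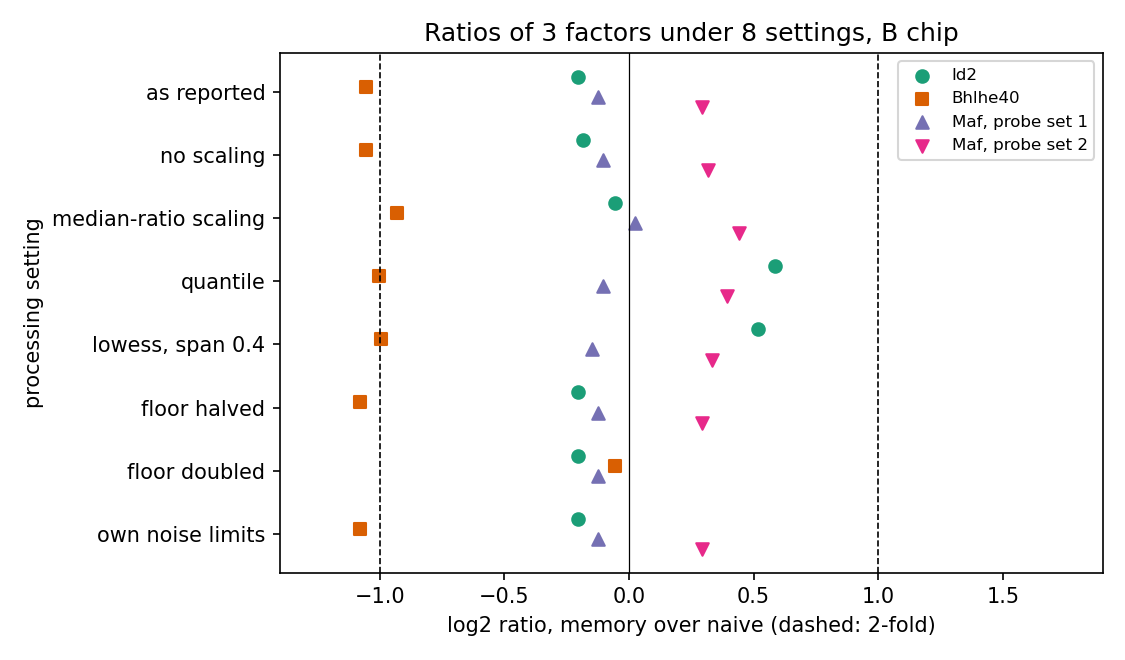
Log2 ratio of memory to naive (horizontal axis, 2-fold dashed) of the Id2, Bhlhe40 and Maf probe sets of the B chip under 8 processing settings (vertical axis). Bhlhe40 stays near -1 except with the floor doubled (-0.055), Id2 moves to 0.58 and 0.52 with quantile and lowess normalization, and the second Maf probe set has no point where it fell under the doubled floor.

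Gata3 lay under the floor in both populations. It read 139 in memory cells and 244 in naive cells, 0.329 and 0.577 times the floor, so no fold is given. Both values also lay under the noise limit of their own array. A level of Gata3 under 287 in memory or under 423 in naive cells was not detectable on this chip, and with the floor halved to 211 only the naive value would lie above it. No A chip probe set carried the symbol Gata3.

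On the A chip, 3 of the 5 genes present were above the noise limit of the memory array, as were 29.5% of all 4775 genes with their own symbol. These were Eomes, Batf and Maf, each by 1 probe set. The rest of the account of this chip concerns levels in memory cells alone, with no naive value beside them.

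Eomes was read by a single probe set at 205, which is 1.11 times the limit of 184. It was thus barely above noise, and it fell under the limit when the 99th percentile of the negative sizes (321), the doubled limit (368) or the limit of the noisier naive array (296) was used. Maf, at 1.21 times the limit, did the same. Batf had probe sets of the same accession that did not match: the first read 34, under the limit, and the second 341, at 1.85 times the limit. The second was above the 99th percentile limit of 321 as well, but not above the doubled limit. Such splits were seen elsewhere on this array. Of 380 pairs whose names differ only by the letter g, the one with the letter alone was above the limit in 63 pairs (16.6%), and the one without the letter alone in 38 (10.0%). The 6 A chip probe sets therefore ranged from 4 to 341, and none reached 2 times the noise limit.

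**Figure D4:**
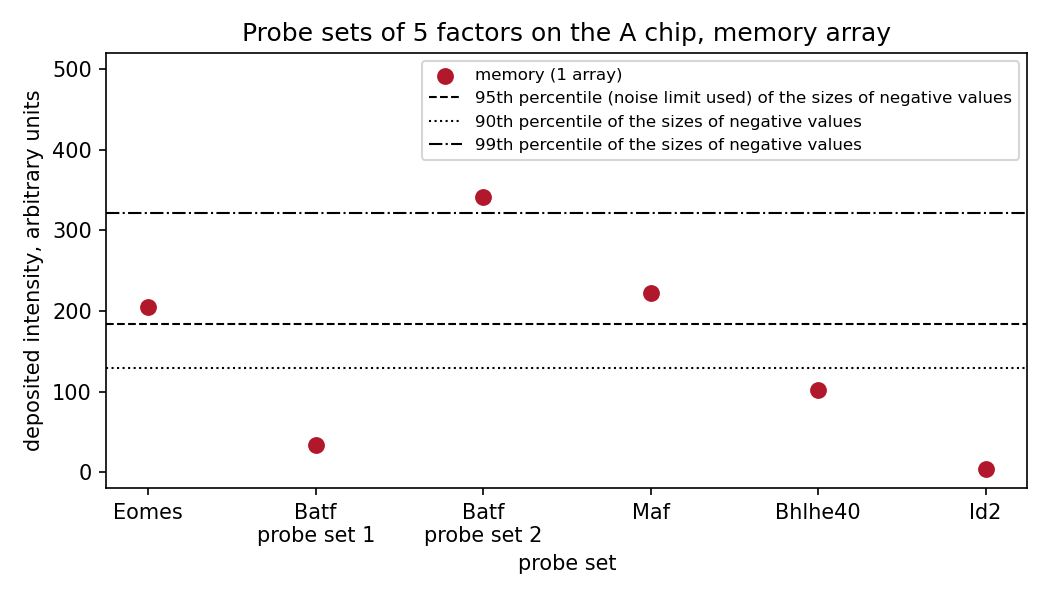
Deposited intensity (arbitrary units) of the 6 probe sets of Eomes, Batf, Maf, Bhlhe40 and Id2 on the memory array of the A chip, with noise limits from 3 percentiles of the sizes of its negative values. Eomes (205), Maf (222) and the second Batf probe set (341) lie above the limit of 184, and the second Batf probe set alone lies above 321.

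Id2, Bhlhe40 and Maf allowed the memory arrays of both chips to be set side by side as above or below noise. Maf was above the limit of its array on both chips (222 on A, limit 184, and 914 before scaling on B, limit 289). Id2 and Bhlhe40 were above it on the B chip alone, Bhlhe40 at 419 before scaling. Of 398 genes with probe sets on both chips, 83 (20.9%) were above the limit on both memory arrays, 52 on the A chip alone, 58 on the B chip alone and 205 on neither. Calls that did not match between chips were therefore more numerous than genes seen on both.

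Partners, relatives and known outputs of the 6 factors were described from 5 lists that together held 92 other genes, 4 of them in a pair of lists. On the B chip 27 of the 92 were present and 8 measured, of which 3 were called lower in memory, none higher and 5 neither, where 8.66% of all measured genes were called lower. The 8 genes had a median log2 ratio of -0.63 against -0.12 over all measured genes. That gap depended on the scaling: the 2 medians were -0.11 and -0.0097 with quantile normalization, and -0.028 and -0.033 with lowess normalization. Of the 43 present on the A chip, 13 (30.2%) were above the noise limit in memory, close to the 29.5% of all genes.

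Batf needs a Jun protein to bind DNA, and Fos proteins compete with it for that partner. Of 5 measured AP-1, IRF and C/EBP partners, 2 were lower in memory and 3 within 2-fold, with a median log2 ratio of -0.018. Of all measured genes, 8.66% were called lower. The AP-1 subunit Jund read 1728 in memory and 6861 in naive cells, a log2 ratio of -1.99, and its other probe set gave 2545 in memory and 5134 in naive cells, a log2 ratio of -1.01. By its brightest probe set, or the mean of both, Jund kept its call in the 13 alternatives that gave it a value, with -1.97 to -1.28 under the other scalings. Its other probe set lost the call without scaling and under each other scaling, at -0.99 to -0.24. Fos, a partner of Jun proteins induced within minutes of stimulation, read 2997 in memory and 6366 in naive cells, a log2 ratio of -1.09, which shrank to -0.26 with quantile and -0.052 with lowess normalization. A second Fos probe set was under the floor on both arrays (-19.9 in memory, 24.2 in naive cells). Jun read 1327 in memory and 1163 in naive cells (log2 ratio 0.19), and Fosl2 read 459 in memory and 464 in naive cells. Cebpb, a leucine zipper factor of macrophages and activated cells, read 1655 in memory and 862 in naive cells, a log2 ratio of 0.94 that passed 2-fold only with median-ratio scaling (1.09), among the scalings tried. Of 6 such partners on the A chip, 4 were above the limit in memory, where 29.5% of all genes were. The 4 were Atf3 at 958, Junb at 898, Irf8 at 390 and Batf3 at 327. The part of macrophages or dendritic cells in the Irf8 and Batf3 levels was not tested. Irf4, named here after its value was seen because it is the main IRF partner of Batf in T cells, read -113.

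**Figure D5:**
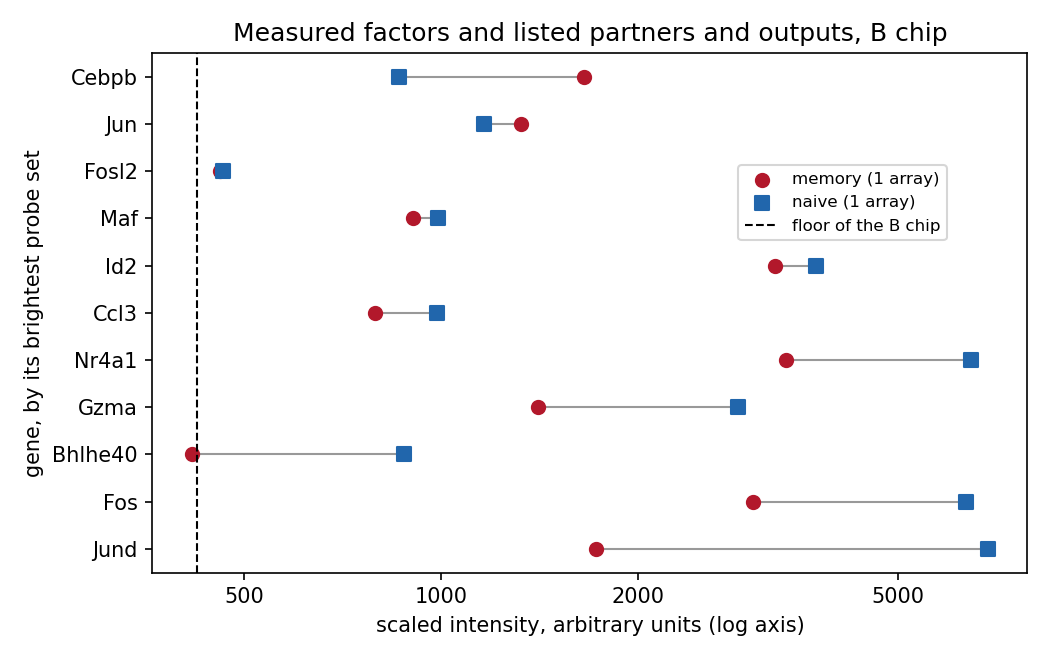
Scaled intensity on the B chip (log axis, arbitrary units) in memory (circles) and naive cells (squares), 1 array each, of Bhlhe40, Id2, Maf and the 8 measured genes among their listed partners, relatives and outputs, ordered by ratio with the highest at the top. Jund, Fos, Bhlhe40 and Gzma lie 2-fold or more to the left in memory, Cebpb lies to the right, and levels of different genes are not comparable since each has its own probes.

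Id2 acts through E proteins, yet none of its listed partners or relatives could be measured. On the B chip Tcf3, Id1 and Id4 were all under the floor on both arrays (-93.3, 126 and 24.8 in memory against 44.3, 194 and 50.4 in naive cells). On the A chip none of 4 was above the limit in memory, where 29.5% of all genes were. Tcf4 read 153, Id1 46, Tcf12 39 and Id3 19. The balance of Id2 against E proteins was therefore not readable at transcript level from these arrays.

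Relatives within the Maf, GATA, T-box and Bhlhe40 families were likewise not seen. Of 14 listed, the 3 present on the B chip (Mafg, Gata1 and Gata6) were under the floor on both arrays. None of 7 on the A chip was above the limit in memory, where 29.5% of all genes were. Gata2 read 115 and the GATA cofactor Zfpm1 70 on that array. Of the other effector and memory factors, 2 of 9 present on the B chip were measured and neither was called. Those were Cebpb and the orphan receptor Nr4a1, a marker of recent receptor signalling, which read 3376 in memory and 6474 in naive cells. The log2 ratio of Nr4a1 was -0.94 and turned to 0.046 with quantile and 0.19 with lowess normalization. Of 16 on the A chip, 6 were above the limit in memory, where 29.5% of all genes were. Among the 6 were the cytokine signal transducers Stat3 at 2016 and Stat5a at 359, the NF-kappaB subunit Relb at 304 and the hypoxia factor Hif1a at 272. The repressor Prdm1, an opposing regulator of memory, read 40 and is named here after its value was seen.

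Genes that these factors are known to regulate gave few readable values. On the B chip the protease gene Gzma read 1405 in memory and 2848 in naive cells, a log2 ratio of -1.02, and the chemokine Ccl3 read 792 in memory and 985 in naive cells, a log2 ratio of -0.31. The Gzma call was lost without scaling (-0.998) and with each other scaling. The 2 measured NK cell markers were above the floor in naive cells only, and neither was called. Klra4 read 102 in memory and 548 in naive cells, and Klra8 read 279 in memory and 516 in naive cells. The part of NK cells in the Gzma signal was not tested. Of 12 such regulated genes on the A chip, 3 were above the limit in memory, where 29.5% of all genes were. The 3 were the chemokines Ccl5 at 1269 and Ccl4 at 1240 and the death ligand Fasl at 265. The Eomes outputs Il2rb, Gzmb and Ifng read 148, 151 and 101 in memory, all under the limit of 184, and the cytokines Il4 and Il10, outputs of Maf, read 37 and 2. These 5 outputs are named after their values were seen.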

How the data were processed

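RNA was extracted with Trizol and hybridised as cRNA to Affymetrix arrays, per the labels. The deposited values are intensity values, 1 whole number per probe set, with some below 0. Scanner software and genome build: not given in the sources used here, so no coordinates are printed. Symbols came from the platform annotation, checked by Entrez number against RefSeq (5551 and 1993 probe sets matched on A and B, 0 symbols changed). Control probe sets were left out, and the arrays of a chip were brought to the same 2% trimmed mean (factors 0.993 to 1.01). The A chip memory levels are as deposited. Each gene was taken from its brightest probe set. Python 3.11.15, scipy 1.17.1 and statsmodels 0.14.6 were used. The members, lists and thresholds were chosen with earlier results of these data known. All members were named. From each list of other factors, partners, relatives and outputs, the called genes were named. Up to 4 others with the brightest memory value were named per list and chip. Genes named after their values were seen are marked so in the text. Cell type markers were named as examples and did not all follow this rule. With 1 array per group and chip, the number of arrays limits the precision.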

Additional observations from a re-analysis of the deposited data

How the results depend on the processing

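No paired analysis was possible because each group had 1 array per chip and no test was made. No array could be left out for the same reason. The count of called factors on the B chip, 1 as reported, became 0 with median-ratio scaling, lowess normalization, the doubled floor, the 3-fold threshold, a brighter array of at least 4 times the floor, and without probe sets whose name carries a class letter, which left 1 measured factor. Bhlhe40 kept its call with no scaling, quantile normalization (-1.002), the halved floor, the 1.5-fold threshold and a looser dimness limit. It also kept it with each array at its own noise limit and with no floor (both -1.08), which were chosen after seeing the data. Directions turned for Id2 with quantile (0.58) and lowess normalization (0.52), for Maf with median-ratio scaling (0.024) and the mean of its probe sets (0.025), for Nr4a1 with quantile (0.046) and lowess (0.19), and for Fosl2 without scaling (0.0031) and with median-ratio (0.13) and quantile (0.082). None of these was a called difference. The cause of these turns was not tested. Of the partner, relative and output genes, 3 were called as reported. With quantile or lowess normalization, or at 3-fold, 1 was called, at 1.5-fold 5 were, 1 of them higher, and without class-letter probe sets 0 of 1 measured. With median-ratio scaling 1 was called lower and 1 higher. On the A chip the 3 of 5 factors above noise became 1 (Batf) with the 99th percentile or the limit of the noisier array, and 0 with the limit doubled. Without class-letter probe sets 3 factors were left, and 1 of them (Eomes) was above noise. The 13 of 43 other genes became 8 with the 99th percentile and 6 with the limit doubled, and without class-letter probe sets 2 of the 12 left were above noise. The median log2 ratio of the 8 measured partner, relative and output genes, -0.63, became -0.11 with quantile and -0.028 with lowess normalization.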
